A study of Homo sapiens with 11 samples.

Results

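The endoplasmic reticulum (ER) folding and quality control genes examined here are 36 genes for ER chaperones, oxidoreductases, factors of ER-associated degradation (ERAD), translocon subunits and sensors of unfolded protein. They were chosen by gene symbol from a list of this pathway and make up 36 of the 61464 gene identifiers in the table. All of them were found, and 35 had enough reads to be tested. RNA was measured in HCT116, a human cell line from a carcinoma of the colon, labelled as epithelial cells with a ras mutation. Cells were kept for 48 h with GTEA1 (4 libraries), with GTEA7 (4 libraries) or with DMSO, the solvent control (3 libraries). GTEA1 and GTEA7 are Ganoderma triterpenoid extracts, Ganoderma being a genus of medicinal bracket fungi, and are known here by these code names alone. Every library came from the same unmodified line and carries the same batch label. No doses are given in the sources used here, so an extract and its dose cannot be told apart, and no source says whether replicates came from separate cultures. The p-values therefore measure the spread between these libraries, which may be technical.

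Secreted and membrane proteins fold in the ER with the help of the Hsp70 chaperone BiP, the Hsp90 chaperone GRP94, lectin chaperones that read sugar chains, and enzymes that form disulfide bonds. Proteins that fail to fold are handed to ERAD, which moves them back to the cytosol for destruction by the proteasome. Unfolded protein is sensed by the membrane proteins IRE1, ATF6 and PERK, whose signalling, the unfolded protein response, raises transcription of many of these chaperone and ERAD genes through the transcription factors XBP1, ATF6 and ATF4. In the intestine, mucin-secreting goblet cells depend strongly on this machinery.

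Total counts per library ranged from 13742326 to 16433111 with GTEA1, from 14955685 to 19304211 with GTEA7 and from 13866350 to 17431515 with DMSO. Values are CPM, read counts relative to the library's size with its TMM factor, unless another scale is named. A value after ± is an SD for a level (n = 4 per extract, n = 3 for DMSO) and a standard error for log2 fold changes. All p-values are from the quasi-likelihood test of edgeR, adjusted by the Benjamini-Hochberg method over the 17963 genes tested, and a gene rose or fell where this was under 0.05. The 9 colon epithelial marker genes summed to 2778 to 2908 CPM with GTEA1, 2245 to 2343 CPM with GTEA7 and 2244 to 2395 CPM with DMSO, with CDX1 at 0 counts throughout and VIL1 at up to 0.287 CPM. With TMM scaling, 4 of the 7 tested rose with GTEA1, such as KRT19 (1025 ± 32 CPM with GTEA1 and 451 ± 28 CPM with DMSO), and 3 fell, such as KRT8 (970 ± 24 CPM with GTEA1 and 1158 ± 42 CPM with DMSO). Of 12 markers of immune, endothelial and fibroblast cells, the collagen gene COL1A1 was at 38.0 to 42.2 CPM with GTEA1, 34.4 to 43.9 CPM with GTEA7 and 50.2 to 52.5 CPM with DMSO. The others reached at most 2.69 CPM in a GTEA1 library, 2.12 CPM in a GTEA7 library and 2.96 CPM in a DMSO library, with CD3E at 0. The sums of all 12 were 40.3 to 48.0 CPM with GTEA1, 38.6 to 48.7 CPM with GTEA7 and 55.7 to 57.9 CPM with DMSO.

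The promoter sequences of HSPA5, HERPUD1 and CALR are shown first because they hold the DNA elements known from the unfolded protein response, above genes with unlike changes. HSPA5 and HERPUD1 had the largest rises with GTEA1 among the 35 tested genes, and CALR was 1 of the 2 that fell. Each sequence is the 250 bases before the RefSeq start site, 5′ to 3′ along the gene, on GRCh38.p14. HSPA5 lies at chr9:125241344-125241593 on the minus strand, HERPUD1 at chr16:56931892-56932141 on the plus strand and CALR at chr19:12938359-12938608 on the plus strand. Capitals mark the outer blocks of an ER stress element, the site of ATF6 and its partner NF-Y. In HSPA5 it is CCAAT, then 9 bases of any kind, then CCACG, and in CALR it stands on the other strand. In HERPUD1 it is the second form, ATTGG, then 1 base of any kind, then CCACG.
HSPA5: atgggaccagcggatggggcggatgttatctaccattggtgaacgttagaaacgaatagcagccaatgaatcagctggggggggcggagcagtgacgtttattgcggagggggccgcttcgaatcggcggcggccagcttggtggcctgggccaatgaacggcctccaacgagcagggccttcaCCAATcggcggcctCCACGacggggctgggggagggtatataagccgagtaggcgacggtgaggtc
HERPUD1: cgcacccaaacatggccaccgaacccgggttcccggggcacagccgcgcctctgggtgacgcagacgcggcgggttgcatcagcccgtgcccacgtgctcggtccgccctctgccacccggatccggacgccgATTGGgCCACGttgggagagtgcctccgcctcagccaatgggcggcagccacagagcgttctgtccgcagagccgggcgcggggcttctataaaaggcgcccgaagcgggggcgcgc
CALR: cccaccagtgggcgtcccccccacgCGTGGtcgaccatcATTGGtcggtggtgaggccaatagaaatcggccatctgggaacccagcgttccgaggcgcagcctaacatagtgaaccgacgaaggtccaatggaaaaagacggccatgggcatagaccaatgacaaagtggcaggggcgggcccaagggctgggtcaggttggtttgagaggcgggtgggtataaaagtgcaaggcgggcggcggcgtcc

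The first comparison set GTEA1 against DMSO, to show the effect of this extract. Of the 35 genes tested, 33 rose and 2, CALR and UGGT1, fell. Over all genes tested, 35.6% rose and 36.2% fell. By at least 2-fold, 13 of the 35 genes rose, against 8.56% of all genes. The median log2 fold change of the 35 genes was 0.70, beside -0.008 for all genes. Each of the 33 genes that rose had its 4 GTEA1 libraries above its 3 DMSO libraries. How many of all genes tested had such a gap was not counted, so this is not shown to be particular to these genes. Scaling matters for so broad a change: with library size alone, the median of all genes moved to -0.166, 4836 genes were higher and 8173 lower in place of 6390 and 6505, and 31 of the 35 genes were higher and 2 lower.

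**Figure D1:**
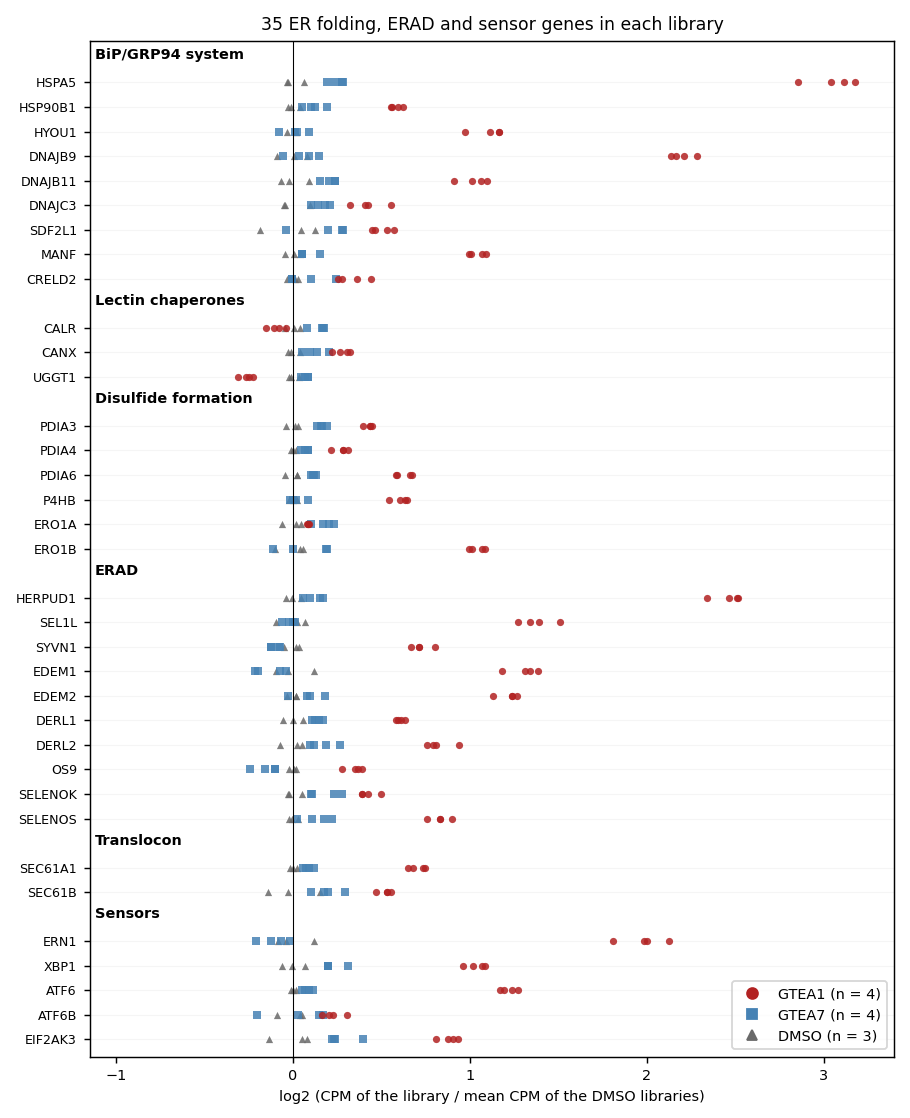
Each point is 1 library, placed by the log2 ratio of its CPM to the mean CPM of the DMSO libraries, for the 35 tested genes in their roles (red circles GTEA1, blue squares GTEA7, grey triangles DMSO). HSPA5, HERPUD1, DNAJB9 and ERN1 stand farthest to the right with GTEA1, UGGT1 lies left of the DMSO libraries, and the GTEA7 libraries stay near 0.

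All 9 genes of the BiP and GRP94 system rose with GTEA1, with a median log2 fold change of 1.02. HSPA5 (ENSG00000044574), which encodes BiP, stood at 5542, 6308, 6618 and 6915 CPM in the GTEA1 libraries, against 798, 751 and 747 CPM in the DMSO libraries. These groups lie far apart, with the lowest GTEA1 library several-fold above the highest DMSO library. The level with GTEA1 was 8.29-fold higher (log2 fold change 3.05 ± 0.06, adjusted p = 8.6e-20). DNAJB9 (ENSG00000128590), the J-domain cochaperone ERdj4 that recruits BiP to IRE1, had 69.0, 71.4, 67.6 and 74.9 CPM with GTEA1, against 15.5, 16.3 and 14.5 CPM with DMSO. Its libraries again fell into separate groups, and the rise was 4.57-fold (2.19 ± 0.06, adjusted p = 8e-35).

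The other J-domain and exchange factors of BiP moved less. HYOU1, the nucleotide exchange factor GRP170, was at 387, 440.4, 426 and 441 CPM with GTEA1, against 192, 199 and 199 CPM with DMSO (1.11 ± 0.04, adjusted p = 4e-27). DNAJB11 (ERdj3), which delivers unfolded clients to BiP, averaged 75.8 ± 4.1 CPM with GTEA1 and 37.3 ± 2.1 CPM with DMSO (1.02 ± 0.05). MANF, a secreted ER protein that binds BiP, averaged 113 ± 3.7 CPM with GTEA1 and 54.7 ± 1.6 CPM with DMSO (1.04 ± 0.04). Each of these rose by at least 2-fold, while HSP90B1, DNAJC3, SDF2L1 and CRELD2 rose by under 2-fold. HSP90B1 (ENSG00000166598), which encodes GRP94, had 1470.3, 1475, 1541 and 1509 CPM with GTEA1, against 1029, 994 and 982 CPM with DMSO (0.58 ± 0.04, adjusted p = 3.1e-20). SDF2L1 (0.50 ± 0.1), a partner of ERdj3, DNAJC3 (0.43 ± 0.05), the cochaperone p58IPK that also restrains PERK, and CRELD2 (0.33 ± 0.06), an ER protein with disulfide isomerase-like activity, had the smaller rises of this group.

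The lectin chaperones and the folding check of glycoproteins did not share 1 direction. CALR (ENSG00000179218), the soluble lectin chaperone calreticulin, had 609, 629, 659 and 639 CPM with GTEA1, against 657, 679 and 695 CPM with DMSO. The highest GTEA1 library lay just above the lowest DMSO library, so the groups overlap, and the fall was small (-0.09 ± 0.03, adjusted p = 0.015). Without DMSO replicate 3 the value was -0.08 and the call was lost (adjusted p = 0.093). CANX, the membrane-bound lectin chaperone calnexin, rose (749, 795, 805 and 773 CPM with GTEA1, against 637, 630 and 662 CPM with DMSO; 0.28 ± 0.04, adjusted p = 1.5e-09). UGGT1 (ENSG00000136731), the glucosyltransferase that re-tags unfolded glycoproteins for another round with these lectins, had 161, 163, 155 and 165 CPM with GTEA1, against 198, 192 and 190.4 CPM with DMSO. All 4 GTEA1 libraries lay below the DMSO libraries, and UGGT1 fell by 16.6% (-0.26 ± 0.04, adjusted p = 4.4e-09).

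All 6 genes of disulfide formation rose, with a median log2 fold change of 0.52. The isomerases PDIA6 (0.63 ± 0.04), P4HB (0.61 ± 0.03), PDIA3 (0.43 ± 0.03) and PDIA4 (0.27 ± 0.03) rose by under 2-fold. P4HB, the protein disulfide isomerase PDI itself, was the most abundant of them at 1056 ± 32 CPM with GTEA1 and 694 ± 9.8 CPM with DMSO. The related oxidases that recharge PDI had unlike values. ERO1B had 43.5, 41.4, 41.9 and 44.0 CPM with GTEA1, against 21.3, 19.3 and 21.6 CPM with DMSO (1.05 ± 0.06, adjusted p = 3.1e-20). ERO1A had 169, 169.98, 169.96 and 170.2 CPM with GTEA1, against 165, 153 and 162 CPM with DMSO. Its GTEA1 libraries lay together just above the DMSO libraries, and the rise was 6.14% (0.09 ± 0.04, adjusted p = 0.035). With library size alone ERO1A turned to -0.07 (adjusted p = 0.076), and its call was lost without DMSO replicate 2 (adjusted p = 0.24) or DMSO replicate 3 (adjusted p = 0.053).

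All 10 tested ERAD genes rose, with a median log2 fold change of 0.83, and 4 of them rose by at least 2-fold. HERPUD1 (ENSG00000051108), a membrane scaffold that organises the ubiquitin ligase complex, had 208, 227, 234 and 236 CPM with GTEA1, against 40.0, 40.9 and 42.4 CPM with DMSO. Every GTEA1 library was well above every DMSO library, a 5.51-fold rise (2.46 ± 0.05, adjusted p = 3.8e-42). SEL1L (ENSG00000071537), the adaptor of that ligase, had 297, 323, 312 and 351 CPM with GTEA1, against 129, 125 and 115 CPM with DMSO (1.38 ± 0.04, adjusted p = 9.2e-27). SYVN1, the ligase HRD1 itself, rose less than its adaptor did in the fitted values (72.1 ± 2.8 CPM with GTEA1 and 43.7 ± 1.3 CPM with DMSO; 0.72 ± 0.05).

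EDEM1 and EDEM2, which trim mannose from glycoproteins that have failed to fold, rose by 1.31 ± 0.05 and 1.22 ± 0.06 on the log2 scale. EDEM1 had 166, 182, 186 and 192 CPM with GTEA1, against 79.6, 68.7 and 72.0 CPM with DMSO. OS9, the lectin that recognises the trimmed sugars, had 152, 160.4, 165 and 162 CPM with GTEA1, against 124, 126 and 127 CPM with DMSO, a smaller rise (0.35 ± 0.04, adjusted p = 2.9e-11). The derlins DERL2 (0.83 ± 0.05) and DERL1 (0.60 ± 0.04), membrane proteins of the export channel, rose, as did their selenoprotein partners SELENOS (0.83 ± 0.05) and SELENOK (0.43 ± 0.06), which bind the ATPase that pulls substrates out. DERL3 (ENSG00000099958), the remaining derlin, had 0 counts in all 11 libraries and could not be tested. A count of 0 allows up to 3 counts in a library, or 0.155 to 0.218 CPM, for counting error alone. In GENCODE v29, 77.0% of its exonic bases overlap SMARCB1 on the opposite strand. Since the strand setting of the counting is not given, a part of this overlap in the count of 0 was not tested.

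Both translocon genes rose: SEC61A1, the channel through which new proteins enter the ER (355 ± 11 CPM with GTEA1 and 218 ± 3.1 CPM with DMSO; 0.70 ± 0.03), and its small subunit SEC61B (0.52 ± 0.06).

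All 5 genes for sensors and their transcription factors rose with GTEA1, with a median log2 fold change of 1.03. ERN1 (ENSG00000178607), which encodes IRE1, the kinase and RNase that splices XBP1 mRNA, had 115, 130.02, 131 and 143 CPM with GTEA1, against 31.0, 32.0 and 35.6 CPM with DMSO. The groups were wide apart and the rise was 3.98-fold (1.99 ± 0.06, adjusted p = 2.2e-20). XBP1 (ENSG00000100219), whose spliced mRNA encodes an activator of chaperone and ERAD genes, had 102, 98.8, 95.1 and 104 CPM with GTEA1, against 48.5, 51.2 and 46.7 CPM with DMSO (1.03 ± 0.05, adjusted p = 6.3e-26). ATF6 (ENSG00000118217), the sensor that is cut in the Golgi to release a transcription factor, had 165, 173, 168 and 177 CPM with GTEA1, against 72.9, 74.2 and 73.4 CPM with DMSO (1.22 ± 0.04, adjusted p = 7.4e-32). Each of these 3 genes rose by more than 2-fold with no overlap between the groups.

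EIF2AK3 (ENSG00000172071), which encodes PERK, the kinase that slows translation through eIF2alpha, had 39.0, 39.7, 37.2 and 40.5 CPM with GTEA1, against 22.4, 21.9 and 19.3 CPM with DMSO (0.88 ± 0.06, adjusted p = 8.1e-18). ATF6B, the ATF6 relative with weaker activity, differed least of the 5 genes (25.2, 23.9, 23.5 and 22.8 CPM with GTEA1, against 19.2, 21.1 and 20.9 CPM with DMSO; 0.22 ± 0.07, adjusted p = 0.0061). Its call was lost with library size alone (0.06, adjusted p = 0.44) and without DMSO replicate 1 (adjusted p = 0.055). Gene counts hold neither the splicing of XBP1 mRNA nor the cutting of ATF6 or the phosphorylation of PERK, so sensor activity is not measured here.

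The second comparison set GTEA7 against DMSO, with the same DMSO libraries as its control. Of the 35 genes, 15 rose, 1, OS9, fell and 19 did not pass, while 12.0% of all genes rose and 10.4% fell. The median log2 fold change was 0.12, beside -0.009 for all genes, and no gene of the 35 changed by 2-fold. The rises ran from 0.12 for HSP90B1, CANX and PDIA6 to 0.26 for EIF2AK3. These small rises depended on the scaling: with library size alone 7 of the 35 genes were higher and 3 lower, and over all genes 1258 were higher and 2949 lower in place of 2159 and 1877. Without DMSO replicate 3, 9 of the 35 genes were higher. Of the 15 rises, 6 kept their call under every alternative tried: DNAJB11, CALR, PDIA3, ERO1A, XBP1 and EIF2AK3. The fall of OS9 kept its call too.

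HSPA5 had 927, 900.2, 929 and 873 CPM with GTEA7, against 798, 751 and 747 CPM with DMSO. The GTEA7 libraries were all above the DMSO libraries, by 18.6% in the fitted value (0.25 ± 0.06, adjusted p = 0.003), although limma-voom did not call it (adjusted p = 0.073). XBP1 had 55.92, 55.94, 56.1 and 60.4 CPM with GTEA7, against 48.5, 51.2 and 46.7 CPM with DMSO (0.22 ± 0.05, adjusted p = 0.00036). EIF2AK3 had 25.0, 24.7, 24.9 and 27.9 CPM with GTEA7, against 22.4, 21.9 and 19.3 CPM with DMSO (0.26 ± 0.06, adjusted p = 0.0017). In both of these the groups did not overlap.

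CALR had 757, 764, 762 and 715 CPM with GTEA7, against 657, 679 and 695 CPM with DMSO, and rose by 10.8% (0.15 ± 0.03, adjusted p = 0.0012). PDIA3 rose by 11.9% (499 ± 8.1 CPM with GTEA7 and 446 ± 11 CPM with DMSO; adjusted p = 0.00018) and ERO1A by 13.0% (181 ± 7.0 CPM with GTEA7 and 160.1 ± 5.9 CPM with DMSO; adjusted p = 0.00023). OS9 (ENSG00000135506) had 117.0, 117.1, 113 and 106 CPM with GTEA7, against 124, 126 and 127 CPM with DMSO. All GTEA7 libraries lay below the DMSO libraries, and OS9 fell by 9.85% (-0.15 ± 0.04, adjusted p = 0.0033).

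Of the genes with the larger rises with GTEA1, several did not pass with GTEA7, and the intervals of their differences were narrow. DNAJB9 had 14.8, 15.8, 17.1 and 16.4 CPM with GTEA7, against 15.5, 16.3 and 14.5 CPM with DMSO, a log2 difference of 0.05 with a 95% interval of -0.09 to 0.19. HERPUD1 was at 0.12 (0.02 to 0.22, adjusted p = 0.078), with 43.9, 46.3, 45.7 and 42.7 CPM with GTEA7, against 40.0, 40.9 and 42.4 CPM with DMSO. HERPUD1 passed with only the compared groups (adjusted p = 0.049), without GTEA7 replicate 4 (0.15, adjusted p = 0.045) and without GTEA1 replicate 1 (adjusted p = 0.034). ERN1 was at -0.10 (-0.24 to 0.04), SEL1L at -0.02 (-0.11 to 0.07), ATF6 at 0.08 (0.00 to 0.16) and EDEM1 at -0.13 (-0.24 to -0.02, adjusted p = 0.083). EDEM1 passed as lower under 6 alternatives, at -0.13 to -0.18 (adjusted p = 0.0068 to 0.039). The remaining genes that did not pass lay between -0.10 for SYVN1 and 0.19 for SDF2L1. Of these, SYVN1 passed as lower with library size alone (-0.15), SELENOS as higher without GTEA7 replicate 1 (0.17) and SEC61A1 as higher under 5 alternatives (0.09 in each).

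Set side by side, 14 genes rose with both extracts, 18 rose with GTEA1 and did not pass with GTEA7, OS9 rose with GTEA1 and fell with GTEA7, CALR fell with GTEA1 and rose with GTEA7, and UGGT1 fell with GTEA1 and did not pass with GTEA7. Both comparisons use the DMSO libraries, so these directions are not independent of each other.

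The direct comparison of GTEA7 against GTEA1 does not use DMSO as its control, though the DMSO libraries enter the shared model and its spread. It tests whether the libraries of the extracts differ, at doses that are not given. Of the 35 genes, 32 were lower with GTEA7 and 3 higher, beside 36.4% and 36.2% of all genes. By at least 2-fold, 9 were lower, against 8.62% of all genes. The median log2 difference was -0.61, beside 0.0 for all genes. With library size alone the median of all genes was 0.108, 7651 genes were higher and 5459 lower in place of 6510 and 6546, and of the 35 genes 3 were higher and 30 lower.

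HSPA5 was lower with GTEA7 by 6.99-fold (-2.81 ± 0.05, adjusted p = 3.8e-20), HERPUD1 by 5.06-fold (-2.34 ± 0.04, adjusted p = 1.6e-43), DNAJB9 by 4.42-fold (-2.14 ± 0.05, adjusted p = 1.7e-36) and ERN1 by 4.26-fold (-2.09 ± 0.06, adjusted p = 7.9e-22). The log2 differences of EDEM1, SEL1L, ATF6, EDEM2 and HYOU1 ran from -1.44 for EDEM1 to -1.09 for HYOU1. CALR (0.24 ± 0.03, adjusted p = 4.3e-09) and UGGT1 (0.33 ± 0.03, adjusted p = 4.7e-13) were higher with GTEA7, with no overlap between the extracts. ERO1A was higher by 6.51% (0.09 ± 0.03, adjusted p = 0.015), a call lost without GTEA7 replicate 2 (adjusted p = 0.079). The calls of CANX (-0.16, and -0.05 with adjusted p = 0.16) and ATF6B (-0.18, and -0.08 with adjusted p = 0.32) were lost with library size alone. That of ATF6B was also lost without GTEA7 replicate 2 (-0.10, adjusted p = 0.17).

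The 36 genes together took 1.31%, 1.41%, 1.43% and 1.48% of all counts in the GTEA1 libraries, 0.720%, 0.727%, 0.733% and 0.710% in the GTEA7 libraries, and 0.693%, 0.694% and 0.687% in the DMSO libraries. The mean shares were 1.41% ± 0.071 with GTEA1, 0.722% ± 0.0099 with GTEA7 and 0.691% ± 0.0039 with DMSO. HSPA5 alone made up 42.5% of these counts with GTEA1, 12.8% with GTEA7 and 11.7% with DMSO. The other genes without HSPA5 took 0.809% ± 0.018 with GTEA1, 0.630% ± 0.0086 with GTEA7 and 0.611% ± 0.0027 with DMSO. These shares are descriptions with no test, and in RNA pooled from many cells more RNA per cell and more cells with the RNA cannot be told apart.

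**Figure D2:**
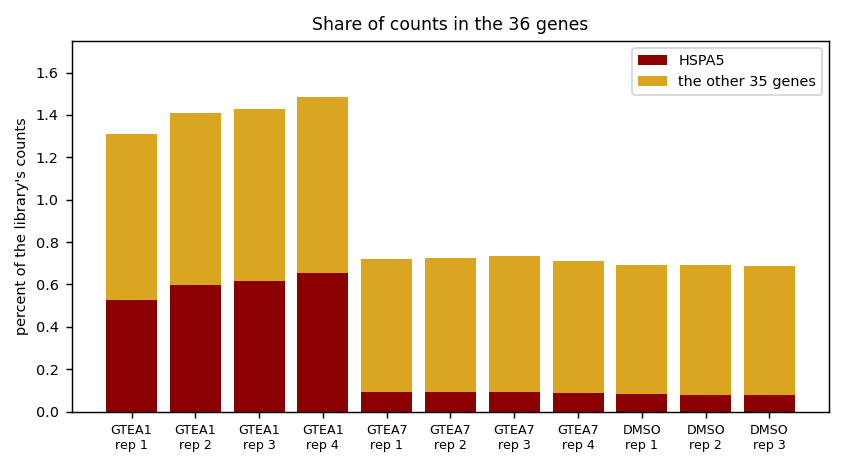
Bars give, for each of the 11 libraries, the percent of all counts that fell in HSPA5 (dark red) and in the other 35 genes (yellow). The 4 GTEA1 bars reach 1.31% to 1.48%, with 42.5% of the height from HSPA5 on average, and the GTEA7 and DMSO bars stay between 0.687% and 0.733%.

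By role, the BiP and GRP94 system took 0.821% ± 0.059 of the counts with GTEA1, 0.249% ± 0.0055 with GTEA7 and 0.231% ± 0.0054 with DMSO. ERAD genes took 0.122% ± 0.0048 with GTEA1, 0.0614% ± 0.001 with GTEA7 and 0.0636% ± 0.0014 with DMSO. The lectin genes had their lowest share with GTEA1, at 0.149% ± 0.003 with GTEA1, 0.168% ± 0.0041 with GTEA7 and 0.159% ± 0.0027 with DMSO.

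Levels were compared between genes per kilobase of the longest GENCODE v29 transcript and library size (FPKM). HSPA5 was first of the 36 genes with GTEA1, at 1624 ± 151 FPKM, and its libraries lay apart from those of HSP90B1, the next at 494 ± 11 FPKM. With GTEA7 and DMSO it held rank 4, at 232 ± 6.7 FPKM and 196 ± 7.4 FPKM, behind CALR, HSP90B1 and P4HB. CALR led with GTEA7 at 394 ± 12 FPKM, where it overlapped HSP90B1, and with DMSO at 356 ± 10.1 FPKM, where the libraries did not overlap, and it was at rank 4 with GTEA1 with 333 ± 11 FPKM. HERPUD1 held rank 11 with GTEA1, 21 with GTEA7 and 20 with DMSO, and DNAJB9 rank 19 with GTEA1 and 32 with both GTEA7 and DMSO.

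At the low end by the longest transcript stood ERN1, last of the 35 detected genes with GTEA7 (3.88 ± 0.22 FPKM) and with DMSO (4.17 ± 0.31 FPKM) and at rank 27 with GTEA1 (16.5 ± 1.5 FPKM). EIF2AK3 was last with GTEA1, at 8.41 ± 0.31 FPKM. Of the 34 pairs of neighbours in the order, 20 overlapped between their libraries with GTEA1, 16 with GTEA7 and 14 with DMSO, so many neighbouring ranks are not apart. The order also rests on the transcript length: with the median length of each gene's transcripts, HSPA5 held rank 2 with GTEA1, 8 with GTEA7 and 9 with DMSO. HSP90B1 was then first with GTEA1, GTEA7 and DMSO. CALR held rank 6 with GTEA1, 3 with GTEA7 and 4 with DMSO, so its lead rests on the length used. ERN1 then held rank 11 with GTEA1, 20 with GTEA7 and 17 with DMSO, so its place at the low end rests on the length used, and EIF2AK3 held rank 33 with GTEA1.

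**Figure D3:**
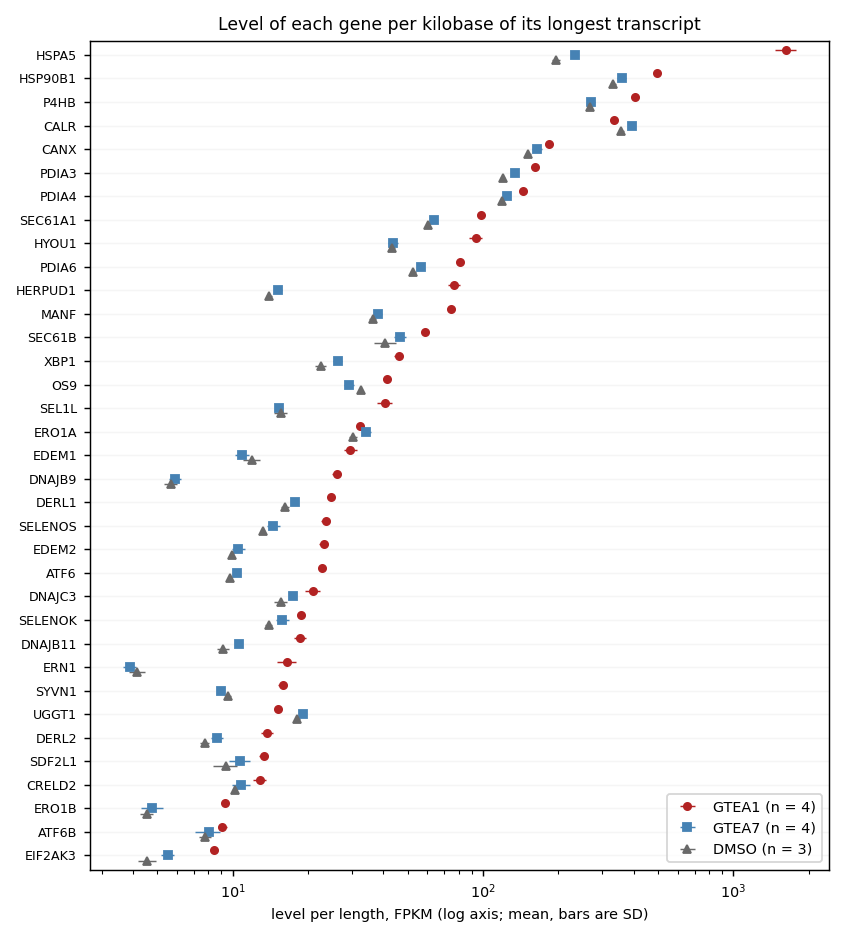
Each row is a gene, ordered by its level with GTEA1; points are mean levels in FPKM on a log axis and bars are SDs (red circles GTEA1, blue squares GTEA7, grey triangles DMSO). HSPA5 with GTEA1 stands alone at 1624 FPKM, while CALR and UGGT1 have their GTEA1 points left of the others.

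The promoter windows of RefSeq (GRCh38.p14), each 250 bases before to 50 bases after a start site, were found for 33 of the 36 genes; those of DERL1, DERL3 and PDIA3 were not used here. Exact matches were searched on both strands. The ER stress element shown above for HSPA5 and CALR was in windows of 8 of the 33 genes (24.2%): CALR, CANX, CRELD2, ERO1B, HSP90B1, HSPA5, PDIA6 and XBP1. Of all 27305 genes with a window, 0.0916% held it. Its second form, shown for HERPUD1, was in HERPUD1, HYOU1 and SDF2L1 (9.09%) and in 0.0696% of all genes. The unfolded protein response element TGACGTGG, bound by XBP1, was in HYOU1 (3.03%) and in 0.927% of all genes, and in HYOU1 it overlaps the second form. The exact string TGATGNAAT, a form of the element bound by ATF4, was in 0 of the 33 genes and in 1.22% of all genes. Forms with another last base were not searched. The HERPUD1 sequence shown above holds such a form on its other strand. The 0 therefore does not show that these genes lack an ATF4 element. The shared block CCACG by itself, which the ER stress elements contain, was in 22 of the 33 genes (66.7%) and in 42.1% of all genes. The ER stress elements were already known from the unfolded protein response, to which these genes belong. These shares are therefore descriptions with no test.

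The element was found beside large and small rises, and beside the small fall of CALR. The libraries of CALR overlap those of DMSO, and its call was lost without DMSO replicate 3. The 11 genes with either form had a median log2 fold change with GTEA1 of 0.63, from -0.09 for CALR to 3.05 for HSPA5. The 22 genes without had a median of 0.77, from -0.26 for UGGT1 to 2.19 for DNAJB9. In HSPA5 the element lies 66 to 48 bases before the start site, in HERPUD1 117 to 107 bases before it and in CALR 225 to 207 bases before it. ERN1, ATF6, SEL1L and EDEM1 held neither form in these windows. Elements that differ in a base or lie outside these windows were not searched, and genes with such elements count as without. Whether the element goes with the rise was not tested. A match is a string of letters and not a measured binding site.

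**Figure D4:**
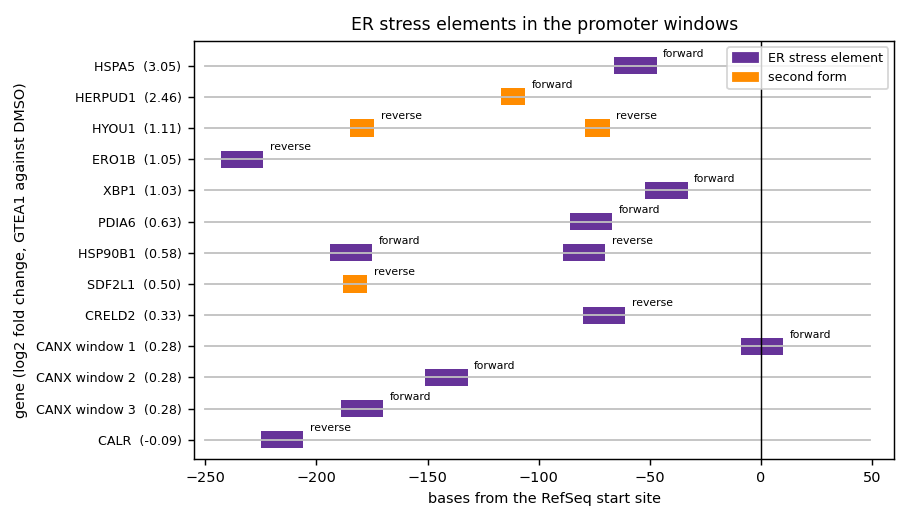
Grey lines are RefSeq promoter windows of the 11 genes with an ER stress element, placed by distance in bases from the start site and ordered by the log2 fold change of GTEA1 against DMSO given in brackets; purple bars are the first form and orange bars the second, with the strand relative to the gene beside them. CANX has 3 overlapping windows that show 1 element, and HSPA5 at the top (3.05) and CALR at the bottom (-0.09) hold the same form.

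Genes of the neighbouring pathway lists were counted in the same fits. Over all genes tested, 35.6% rose and 36.2% fell with GTEA1, and 12.0% rose and 10.4% fell with GTEA7. PERK acts through eIF2alpha and the transcription factor ATF4. All 10 tested genes listed as outputs of PERK and ATF4 rose with GTEA1, with a median log2 fold change of 3.68. Of the related kinase genes, EIF2AK1 and EIF2AK4 rose with GTEA1 and EIF2AK2 fell. Which kinase, if any, lay behind the rises of the listed outputs was not tested. ATF4 averaged 733 ± 12 CPM with GTEA1, 293 ± 11 CPM with GTEA7 and 263 ± 8.8 CPM with DMSO. PPP1R15A, the phosphatase subunit GADD34 that reverses PERK's action, rose (177 ± 16 CPM with GTEA1 and 33.3 ± 0.66 CPM with DMSO; 2.41 ± 0.06), as did the asparagine synthetase ASNS (4.55 ± 0.09). With GTEA7, ATF4 (0.16 ± 0.04), TRIB3 (0.34 ± 0.07) and ATF3 (0.35 ± 0.1) rose and SESN2 fell (-0.66 ± 0.13), and the other 6 did not pass. All 10 were lower with GTEA7 than with GTEA1, with a median log2 difference of -3.56.

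**Figure D5:**
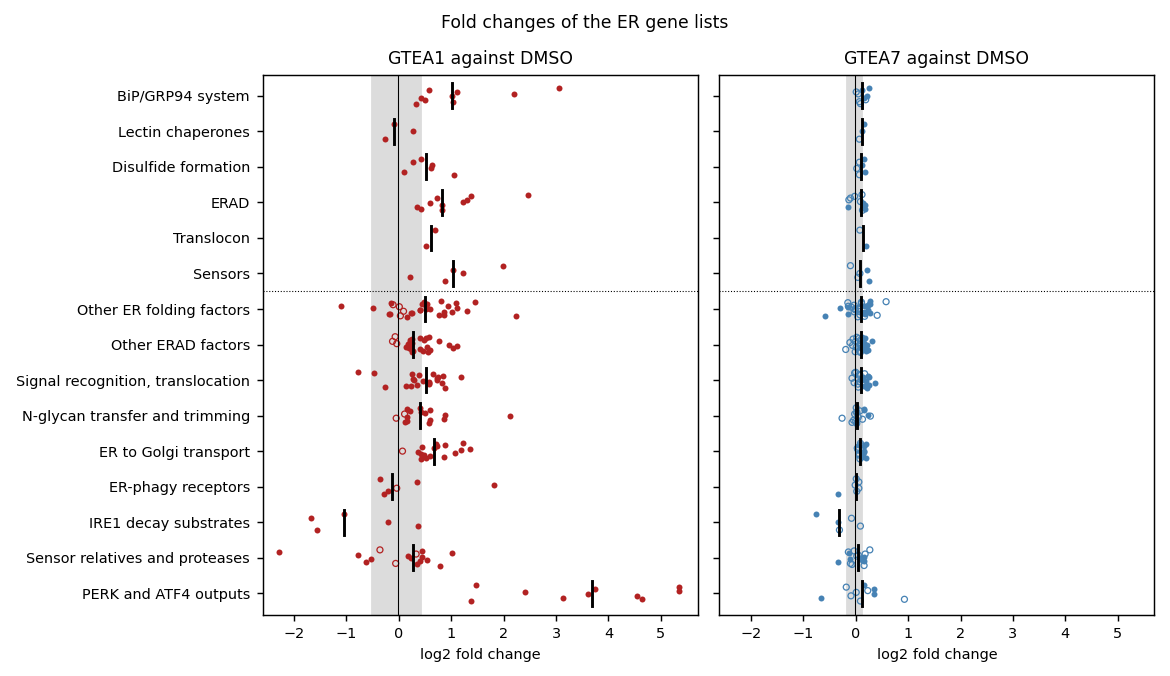
Points are the log2 fold changes of the tested genes of each list, GTEA1 against DMSO on the left and GTEA7 against DMSO on the right; filled points passed the test, black bars are list medians, the grey band holds the middle of all tested genes (first to last quartile), and the lists of the 36 genes stand above the dotted line. With GTEA1 the list medians run from -1.05 for IRE1 decay substrates to 3.68 for PERK and ATF4 outputs.

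IRE1 also cuts certain mRNAs directly, a process known as IRE1-dependent decay. Of 5 tested genes known as its substrates, mostly from mouse cells, 4 fell with GTEA1 and 1 rose, beside 36.2% and 35.6% of all genes. SCARA3 (9.37 ± 1.2 CPM with GTEA1 and 29.8 ± 1.6 CPM with DMSO; -1.68 ± 0.08), SPARC (-1.57 ± 0.17), BLOC1S1 (0.919 ± 0.11 CPM with GTEA1 and 1.92 ± 0.29 CPM with DMSO; -1.05 ± 0.26) and COL6A1 (-0.21 ± 0.04) fell, and HGSNAT rose (0.36 ± 0.05). With GTEA7, BLOC1S1 (-0.76 ± 0.24) and COL6A1 (-0.33 ± 0.04) fell. The call of BLOC1S1 with GTEA7 was lost without DMSO replicate 2 or 3 (adjusted p = 0.082 and 0.059) and without GTEA7 replicate 1 or 3 (adjusted p = 0.074 and 0.057). Decay itself was not measured.

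Among 32 other tested ER folding factors, 23 rose and 5 fell with GTEA1, beside 35.6% and 36.2% of all genes. Their median was 0.50, and with library size alone 21 were higher and 7 lower. CALU, a calcium-binding ER protein, averaged 611 ± 9 CPM with GTEA1 and 301 ± 5.9 CPM with DMSO (1.02 ± 0.03). CLGN, a lectin chaperone related to calnexin, had the largest change (2.24 ± 0.1), and the BiP exchange factor SIL1 rose (1.31 ± 0.09). FKBP7 (-1.10 ± 0.12), FKBP11 (-0.50 ± 0.07), both prolyl isomerases, QSOX1 (-0.19 ± 0.04), a sulfhydryl oxidase, PRDX4 (-0.16 ± 0.05), a peroxiredoxin that feeds disulfides to PDI, and TMX1 (-0.15 ± 0.05) fell. The call of TMX1 was lost without GTEA1 replicate 3. With GTEA7, 10 of the 32 rose and 4 fell, beside 12.0% and 10.4% of all genes, and with library size alone 8 were higher and 5 lower.

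Of 28 other ERAD factors, 25 rose and 0 fell with GTEA1, beside 35.6% and 36.2% of all genes. Their median was 0.27. With library size alone, 15 were higher and 3 lower. ERLEC1, a lectin like OS9 (1.11 ± 0.05), RHBDD1, an ER rhomboid protease (1.03 ± 0.04), and EDEM3 (0.95 ± 0.05) had the largest changes. VCP, the ATPase that extracts substrates from the membrane, was at -0.07 ± 0.04 with GTEA1 (adjusted p = 0.058). With library size alone VCP was at -0.23 and passed (adjusted p = 8.3e-08). VCP also passed under 4 further alternatives, at -0.08 to -0.11 (adjusted p = 0.0081 to 0.049). With GTEA7, 12 of the 28 rose and 0 fell, beside 12.0% and 10.4% of all genes, and with library size alone 8 were higher and 2 lower.

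Of 22 genes of the signal recognition particle, translocation and signal peptidase, 19 rose and 3 fell with GTEA1, beside 35.6% and 36.2% of all genes. The rises were led by the receptor subunit SRPRA (1.19 ± 0.04). SRP9 (-0.78 ± 0.04), SRP14 (-0.47 ± 0.04) and the peptidase subunit SEC11A (-0.26 ± 0.04) fell. SRP9 and SRP14 form the domain of the particle that pauses translation. With library size alone, 16 of the 22 were higher and 3 lower with GTEA1. With GTEA7, 11 of the 22 rose and 0 fell, beside 12.0% and 10.4% of all genes. With library size alone 6 were higher and 0 lower. Of 16 genes of N-glycan transfer and trimming, 14 rose and 0 fell with GTEA1, beside 35.6% and 36.2% of all genes. Their median was 0.41. With library size alone 9 were higher, and the glucosidase subunit GANAB, which rose by 0.16 ± 0.03 with TMM, was at 0.00. With GTEA7, STT3B, RPN1 and OSTC of that list rose and 0 fell, beside 12.0% and 10.4% of all genes. With library size alone 3 were higher and 2 lower.

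Of 17 genes of ER to Golgi transport, 16 rose and 0 fell with GTEA1, beside 35.6% and 36.2% of all genes. Their median was 0.67, and with library size alone 16 were higher and 1 lower. The coat subunits SEC24D (1.35 ± 0.05), SEC13 (1.23 ± 0.04) and SEC31A (1.18 ± 0.04) had the largest changes. With GTEA7, 8 of the 17 rose, beside 12.0% of all genes, and with library size alone 3 were higher. Of 6 ER-phagy receptors, 2 rose and 3 fell with GTEA1, near the shares of all genes (35.6% and 36.2%). CCPG1 (1.81 ± 0.11) and RTN3 (0.35 ± 0.04) rose. RETREG1 (-0.35 ± 0.09), CALCOCO1 (-0.29 ± 0.05) and TEX264 (-0.21 ± 0.07) fell, the last a call lost without DMSO replicate 3 (adjusted p = 0.086). CALCOCO1 fell with GTEA7 too (-0.33 ± 0.05). Of 16 relatives and proteases of the sensors, 9 rose and 4 fell with GTEA1, beside 35.6% and 36.2% of all genes. With library size alone, 7 were higher and 5 lower. The calls of EIF2AK1 (0.07, adjusted p = 0.05) and MBTPS1 (0.01, adjusted p = 0.73) were then lost. CREB3L2, an ATF6-like membrane factor, rose (1.02 ± 0.04), and the kinase EIF2AK2 (-0.54 ± 0.04), the IRE1 adaptor TRAF2 (-0.62 ± 0.1), CREB3L4 (-0.77 ± 0.13) and CREB3L1, at 0.161 ± 0.19 CPM with GTEA1 and 0.791 ± 0.16 CPM with DMSO, fell. The value of CREB3L1, -2.29 ± 0.49, was -3.40 without GTEA1 replicate 2. With GTEA7, 4 of the 16 rose and 3 fell, beside 12.0% and 10.4% of all genes, and with library size alone 0 were higher and 4 lower.

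Some of the 36 genes overlap other genes, and how the counting treated reads there is not given. In GENCODE v29, PDIA6 shares 25.2% of its exonic bases with ATP6V1C2, and PDIA3 14.8% with ELL3, both on the opposite strand. SYVN1 overlaps FAU on the same strand and MRPL49 on the other, and DNAJB9 overlaps THAP5 and PNPLA8 on the other, by 3.49% to 7.24% of exonic bases. PDIA3P1, a processed pseudogene copy of PDIA3, had 2938 counts over the libraries, equal to 3.21% of those of PDIA3. Their part in these values was not tested.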

How the data were processed

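Polyadenylated RNA of HCT116 cells was sequenced in 11 libraries, with 4 of GTEA1, 4 of GTEA7 and 3 of DMSO, all at 48 h. Per the labels' protocols, RNA was extracted with TRIzol, selected with poly-T beads and made into libraries with a NEBNext Ultra kit. The authors deposited unnormalised read counts for each gene and library. STAR, SAMtools 0.1.18, Picard, HTSeq 0.5.4, GATK and DESeq 1.10.1 are listed in the submitters' processing notes. The genome build, the annotation and the use of strand were not given in the sources used here. Symbols were found for 60370 of 61464 identifiers, and the others held 0.727% of the counts.

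Counts of all genes were fitted in 1 model by robust quasi-likelihood with edgeR 4.0.16 under R 4.3.3, after filterByExpr and TMM scaling, with the Benjamini-Hochberg threshold at 0.05. Standard errors were the size of a log2 fold change over the root of its F. The model was also run on simulated counts in which few genes were changed, by set folds. That setting differs from the broad change with GTEA1 and the small changes with GTEA7. The simulation cannot show how well the model works on these data, and no conclusion is drawn from it. Depth, 13742326 to 19304211 counts, limits the genes with few reads. FPKM used the longest GENCODE v29 transcript. Promoters are RefSeq's; protein sequences were not analysed here.

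The genes and lists were chosen with earlier results of these data known. Named besides the 36 genes were, per list, the 2 of highest level, the 3 of largest change with GTEA1 among those that passed with at least 1 CPM and no overlap with DMSO, and any gene of a count of 5 or fewer. Not all of these are named, and which was chosen after their values were seen. Alternatives were DESeq2 size factors, library size only, no filter, a filter of at least 1 CPM in 3 libraries, a block for the replicate number, only the compared groups, limma-voom 3.58.1, the Wald test of DESeq2 1.42.0, leaving out each library, counts outside mitochondrially encoded genes for shares, and the median transcript length for levels.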

Additional observations from a re-analysis of the deposited data

Results flagged for a closer look

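Within each extract's 4 libraries, the highest and lowest library of each named gene were set against the other 3 by Dixon's test, over 150 groups, and 13 stood apart, where chance gives about 1 in 20. Among the 36 ER genes these were GTEA7 replicate 3 for MANF, highest at 60.7 CPM, and GTEA7 replicate 4 for CALR, lowest at 715 CPM, for XBP1, highest at 60.4 CPM, and for EIF2AK3, highest at 27.9 CPM. Each of these 3 GTEA7 replicate 4 values lay outside the DMSO range on the same side as the other GTEA7 libraries.

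Among the other pathway genes, GTEA7 replicate 4 was lowest for ATF4 at 277 CPM and for FKBP9 at 127 CPM, and GTEA7 replicate 3 was lowest for COL6A1 at 119 CPM. GTEA1 replicate 4 was highest for CLGN at 31.3 CPM, for RTN3 at 243 CPM and for SSR1 at 347 CPM. GTEA1 replicate 3 was highest for SEC13 at 152 CPM, GTEA1 replicate 2 was highest for CREB3L1 at 0.44 CPM, and GTEA1 replicate 1 was lowest for SEC31A at 204 CPM.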

How the results depend on the processing

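Of the 33 genes that rose with GTEA1 against DMSO, 31 kept their call under every alternative tried, with ERO1A and ATF6B the exceptions, and 31 to 33 were higher in each. The 2 that fell became 1 without DMSO replicate 3, with a range of 1 to 2 over single libraries left out. With GTEA7 against DMSO, the 15 that rose became 7 with library size only and ranged from 9 to 17 with single libraries left out, the lowest without DMSO replicate 3. The 1 that fell became 3 with library size only and 2 with only the compared groups, and ranged from 1 to 2 with single libraries left out. The added gene was EDEM1, joined by SYVN1 with library size only. The 9 rises lost under some alternative were HSPA5, HSP90B1, DNAJC3, CANX, PDIA6, DERL1, DERL2, SELENOK and SEC61B, of which HSPA5 was lost with limma-voom alone. With GTEA7 against GTEA1, 30 of 32 lower and 2 of 3 higher genes kept their call throughout.

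Directions turned for small values alone. With library size only, ERO1A was at -0.07 in GTEA1 against DMSO, and in GTEA7 against DMSO HYOU1 was at -0.04, DNAJB9 at -0.00, P4HB at -0.03 and ATF6B at -0.01. In GTEA7 against DMSO, HYOU1 was also at -0.00 and -0.01, and ATF6B at -0.00 and -0.01, without DMSO replicate 1 and GTEA7 replicate 1, and SEL1L was at 0.01 without DMSO replicate 1. With single libraries left out, HYOU1 ranged from -0.01 to 0.05, SEL1L from -0.06 to 0.01 and ATF6B from -0.01 to 0.12. None of these GTEA7 values had passed the test. The cause of these turns was not tested.

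The labels give no pairing by replicate number. Deviations of same-numbered libraries correlated at -0.055 to 0.026 over 10 pairs, beside -0.041 to 0.043 for pairs of unlike number. With groups of 3 or 4 libraries, such correlations cannot exclude a pairing. With the replicate block, 32 genes were higher and 2 lower in GTEA1 against DMSO, ERO1A being lost at an adjusted p of 0.068, and 15 were higher and 2 lower in GTEA7 against DMSO.

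Outside mitochondrially encoded genes, the share of counts in the 36 genes was 1.62% with GTEA1, 0.850% with GTEA7 and 0.808% with DMSO, since the total is smaller. With the median transcript length, the median level of the 35 genes was 113 FPKM with GTEA1, 58.1 FPKM with GTEA7 and 55.1 FPKM with DMSO, in place of 29.5, 17.4 and 15.6 FPKM, since that length is shorter.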

Other observations

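An ER stress element of either form was also found in the RefSeq promoter windows of 33 genes outside the 36. In GTEA1 against DMSO, 11 of the 22 tested rose, 9 fell and 2 did not pass, beside 35.6% higher and 36.2% lower over all genes. The following were chosen after their values were seen. FICD, which adds AMP to BiP, had a log2 fold change of 1.17, SERP1, a translocon-associated protein, 0.88, and NUCB1, a calcium-binding protein that restrains ATF6, 0.56, and all 3 rose. GYS1, the muscle glycogen synthase, fell (-1.23), as did SHCBP1 (-1.75), a protein of dividing cells. In GTEA7 against DMSO, 3 of the 22 rose, 4 fell and 15 did not pass, beside 12.0% higher and 10.4% lower over all genes.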
